A study of Mus musculus with 6 samples.

Results

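T cell receptor variable (V) segments are the gene segments that each T cell joins to a J segment (with a D segment for beta and delta chains) to build its antigen receptor. The V segments described here were chosen by their summed raw counts alone: they are the genes whose symbol begins with Trav, Trbv, Trgv or Trdv and whose raw counts sum to at least 10 over 6 libraries: 93 of the 131 such genes in a table of 37187 gene IDs. They were 67 alpha (Trav), 21 beta (Trbv), 1 gamma (Trgv) and 4 delta (Trdv) segments. The libraries came from regulatory T cells (Tregs, which hold other immune cells in check), sorted as CD4+CD25+GITR+ from lymph nodes draining B16.F10 melanoma, a transplantable mouse tumour line, 14 days after 300000 tumour cells were injected under the skin. There were 3 libraries from il33-/- mice on the C57BL6 background (KO, replicates 4 to 6) and 3 from C57BL6 mice (WT, replicates 1 to 3), and both groups bore the tumour. The labels give no age or sex, do not describe the deleted part of Il33, and do not say whether each library is a separate animal or a pool, so the spread between libraries may be partly technical.

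Most CD4 T cells carry an alpha-beta receptor, in which each chain uses 1 rearranged V segment; gamma-delta T cells use the other pair of chains. The share of reads from each V segment therefore describes the receptor repertoire of a bulk population, although it cannot say which alpha pairs with which beta or which clones exist. Trav11 and the near-identical Trav11d encode the semi-invariant alpha chain of natural killer T (NKT) cells, and Trav1 that of mucosal-associated invariant T (MAIT) cells. In mice part of the Trav cluster is duplicated, and the extra copies carry the letters d and n in their names.

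The 3′ ends of V exons are shown because the conserved cysteine codon there opens the junction with the J segment. Capitals mark the last in-frame TGT within the last 60 bases of the exon, a feature found in 113 of the 131 V genes (86.3%) and in 79 of the 93 segments kept; a segment without it may end in another codon or frame. Sequences are on the coding strand from GENCODE M21 transcripts on GRCm38. The first 4 are the most used beta segments, at chr6:41048769-41048828, chr6:41121773-41121832, chr6:41047936-41047995 and chr6:41178989-41179048 on the plus strand.
Trbv3: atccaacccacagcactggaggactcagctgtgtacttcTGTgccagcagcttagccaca
Trbv13-2: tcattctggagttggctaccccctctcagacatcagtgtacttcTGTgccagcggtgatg
Trbv2: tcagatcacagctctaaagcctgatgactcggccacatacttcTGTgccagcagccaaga
Trbv19: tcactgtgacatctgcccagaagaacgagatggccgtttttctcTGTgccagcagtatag
The next 4 belong to the Trav14 subfamily and show how few bases separate them at this end. They lie at chr14:53370516-53370575, chr14:53554499-53554558, chr14:53763635-53763694 and chr14:53078986-53079045 on the plus strand.
Trav14n-3: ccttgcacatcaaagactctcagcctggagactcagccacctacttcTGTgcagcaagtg
Trav14-1: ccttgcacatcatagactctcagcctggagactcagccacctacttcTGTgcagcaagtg
Trav14-3: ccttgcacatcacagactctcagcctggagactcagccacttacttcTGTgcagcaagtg
Trav14d-3-dv8: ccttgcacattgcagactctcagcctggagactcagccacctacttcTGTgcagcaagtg
With Trav14n-3 as the first base given and positions counted from 1 at the printed 5′ end, Trav14-1 differs by A13T, Trav14-3 by A13C and C41T, and Trav14d-3-dv8 by C11T, A12G and A13C. Over their whole V exons of 309 bases, Trav14n-3 and Trav14-3 differ by 6 edits (98.1% identity). On the same measure Trav14n-3 differs from Trav14d-3-dv8 by 10 edits (96.8%) and from Trav14-1 by 22 edits (92.9%). Trav14-1 is thus the least alike of the 3 over the whole exon, though the most alike in the printed stretch. The 3 Trav9 copies below show a stronger case, at chr14:52892559-52892618, chr14:53203495-53203554 and chr14:53591455-53591514 on the plus strand.
Trav9d-2: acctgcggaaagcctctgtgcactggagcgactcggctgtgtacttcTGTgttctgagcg
Trav9n-2: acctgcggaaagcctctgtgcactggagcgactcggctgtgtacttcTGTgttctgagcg
Trav9-2: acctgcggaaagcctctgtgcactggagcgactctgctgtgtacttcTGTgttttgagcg
Trav9d-2 and Trav9n-2 are identical over the whole exon, and each had 0 reads in the deposited counts. Trav9-2, which differs from Trav9d-2 by G35T and C54T in this stretch, had 381 reads. The last 6 are the semi-invariant alpha segments and the gamma and delta segments described further on, at chr14:53519800-53519859, chr14:52824853-52824912, chr14:52428817-52428876, chr14:54075456-54075515 and chr14:53961543-53961602 on the plus strand and chr13:19336573-19336632 on the minus strand.
Trav11: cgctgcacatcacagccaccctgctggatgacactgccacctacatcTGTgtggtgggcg
Trav11d: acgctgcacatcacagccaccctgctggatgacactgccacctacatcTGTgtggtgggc
Trav1: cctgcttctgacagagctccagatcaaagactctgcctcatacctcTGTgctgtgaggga
Trdv4: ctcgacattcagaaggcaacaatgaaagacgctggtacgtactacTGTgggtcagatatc
Trdv2-2: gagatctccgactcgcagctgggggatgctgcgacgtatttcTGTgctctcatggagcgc
Trgv2: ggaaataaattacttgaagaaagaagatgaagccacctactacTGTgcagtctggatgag

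Total counts ran from 20877014 to 21073195 in KO libraries and from 18071928 to 21165063 in WT libraries. Il33 had 3, 8 and 2 reads in KO replicates 4 to 6, against 7, 0 and 9 reads in WT replicates 1 to 3, too few to check the genotype. Foxp3, the defining Treg factor, stood at 832 ± 36.6 CPM (counts scaled to the library total) in KO and 751 ± 45.6 CPM in WT (SD, n = 3 each), so the sorted cell type was present in all 6. The 6 Treg markers together summed to 3827 to 4118 CPM in KO, against 3083 to 3618 CPM in WT. Of these, 2 (Ctla4 and Ikzf4) were called higher in KO by edgeR and 0 lower, against 3.68% and 2.83% of all genes. B cell RNA was present too: 18 measured markers, none at 0, summed to 1462 to 1816 CPM in KO, against 2399 to 4043 CPM in WT. With edgeR 0 of the 18 were called, against 6.50% of all genes, and 17 had an unadjusted p under 0.05, against 21.8% of all genes; 14 were lower in all KO than in all WT libraries and 4 overlapped. Without Cd72, which was high in WT replicate 2 alone, the sum was 1434, 1773 and 1421 CPM in KO replicates 4 to 6, against 3957, 1840 and 3249 CPM in WT replicates 1 to 3. Its part in the values below was not tested beyond the alternatives given. In bulk RNA, fewer cells of a type and less RNA per cell cannot be told apart.

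The beta repertoire was broad, with the same 2 segments at its head in KO and WT means. Usage is the segment's FPKM (fragments per kilobase of gene, scaled to depth) as a percentage of the summed FPKM of its locus, so that segments of different length can be compared. The lengths behind the deposited FPKM did not always follow the annotated exon lengths. The alpha segments Trav8-2 and Trav6n-6 had 230 reads each and annotated lengths of 337 and 365 bases. Their mean usage was 0.265% and 2.20%. Usage ranks, shares and evenness all depend on the deposited lengths. Trbv3 was the most used segment, at 11.9%, 13.7% and 12.5% in KO replicates 4 to 6, against 11%, 12.9% and 11.2% in WT replicates 1 to 3. Trbv13-2, of the Trbv13 subfamily, followed at 9.59%, 9.30% and 9.29% in KO, against 9.42%, 10.3% and 9.51% in WT. The ranges of KO and WT overlapped for both.

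Behind these 2, the beta segments from Trbv2 down to Trbv13-1 shared a plateau. Mean usage over the 6 libraries was 6.72% for Trbv2, 6.71% for Trbv19, 6.67% for Trbv13-3, 6.52% for Trbv31 and 6.45% for Trbv5. It was 6.16% for Trbv16, 6.07% for Trbv15, 5.78% for Trbv1 and 5.70% for Trbv13-1. The next of the 21 kept segments, Trbv20, had 3.70%. Trbv4, described further on, is left out of the beta shares, sums and evenness. Added to the beta total, it took 4.73% ± 0.210 in KO and 3.87% ± 0.140 in WT (SD, n = 3 each). Within the plateau, the differences between neighbours were smaller than the spread between libraries of either. Their order was not the same in the 2 groups. Trbv15, for example, averaged 5.57% ± 0.914 in KO and 6.57% ± 0.753 in WT (SD, n = 3 each). Trbv31 lies downstream of the constant genes in inverted orientation and rearranges by inversion, and Trbv1 lies far upstream of the rest of the cluster. Trbv5 overlaps 5830405F06Rik on the same strand, so its reads could not be assigned with certainty. At the other end Trbv21 had 6, 6 and 5 reads in KO and 4, 2 and 4 in WT, and it was too low to be tested.

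**Figure D1:**
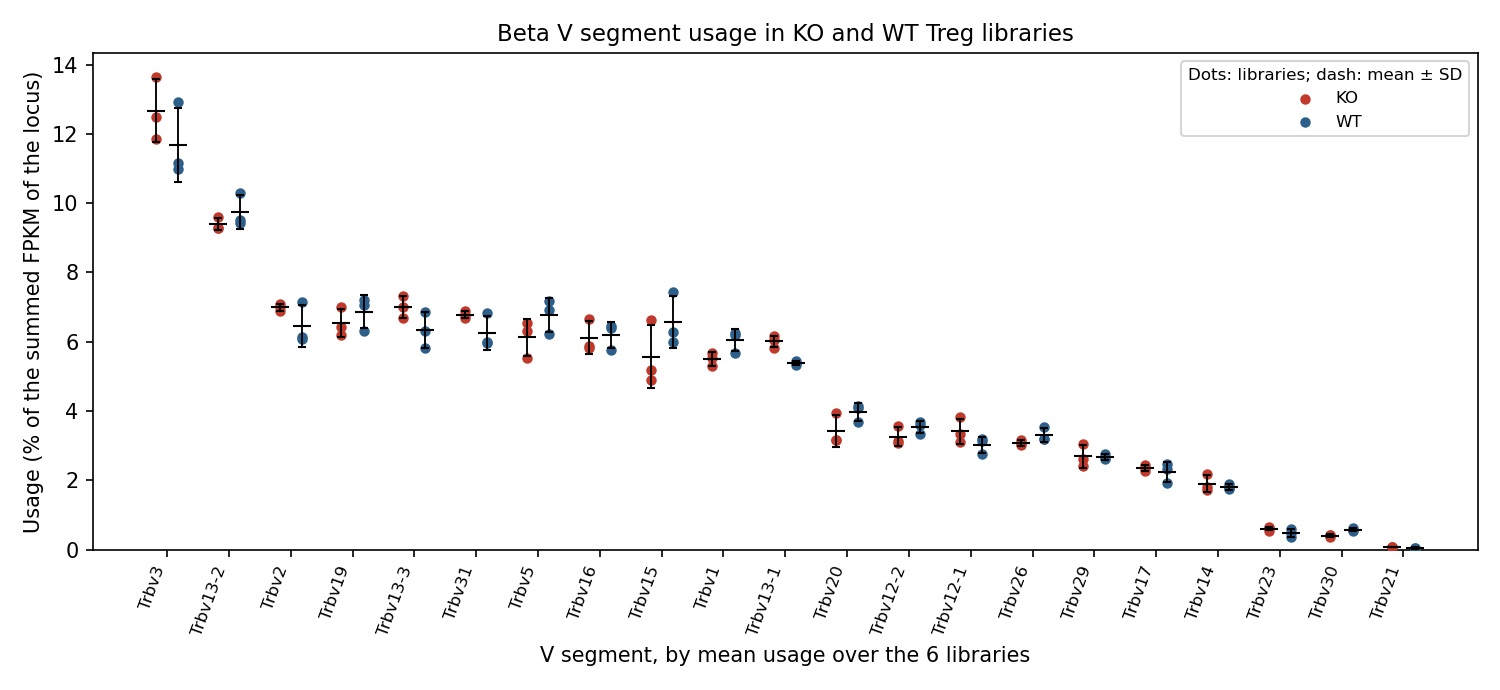
Usage of the 21 beta V segments, as a percentage of the summed FPKM of the locus, in KO (red, left of each pair) and WT (blue, right) libraries; dots are libraries and the dash and bar give the mean and SD (n = 3 each). Trbv3 leads at 11.9% to 13.7% in KO and 11% to 12.9% in WT; below the first 2 segments most dots of KO and WT intermingle.

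Relative to counting error, Trbv15 varied most between libraries. It had 632, 462 and 451 reads in KO, against 566, 613 and 457 in WT, which is 12.4 times the variance that counting alone gives at these totals (chi-square over degrees of freedom across the 6 libraries); the median over the 93 segments was 1.80. The ratio grows with read number: Trav15-2-dv6-2, with 34, 2 and 11 reads in KO and 21, 31 and 10 in WT, varied more in proportion and had a ratio of 8.12. For Trbv15, KO replicate 4 was high and KO replicates 5 and 6 low, and the groups overlapped. Within beta, the 3 Trbv13 segments together took 22.4%, 22.1% and 22.7% of usage in KO, against 21.2%, 21.4% and 21.8% in WT. These groups did not overlap, at an exact two-sided permutation p = 0.1, the smallest p that 3 against 3 libraries allow. Of 21 subfamilies compared in alpha and beta, 2 did not overlap, the other being Trav10 with 3.09%, 2.997% and 3.46% of alpha usage in KO, against 2.91%, 2.20% and 2.15% in WT; the smallest adjusted exact permutation p was 0.919. Within Trbv13, Trbv13-1 had 536, 527 and 535 reads in KO and 472, 423 and 395 in WT, whereas Trbv13-2 gave a log2 fold change of -0.011 (SE 0.075).

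The alpha repertoire was spread over more segments, each thinly covered. The median alpha segment had 125 reads over all 6 libraries and the median beta segment 2888. Trav14n-3 had the highest mean over the 6 libraries, with 5.12%, 5.12% and 6.11% of alpha usage in KO, against 5.29%, 5.15% and 4.17% in WT. In WT alone Trav4-4-dv10 was above it, at 5.11% ± 0.322 against 4.87% ± 0.607 (SD, n = 3), a difference within the spread between libraries. By raw reads over the 6 libraries the order was Trav14-1 with 589, Trav4-4-dv10 with 567 and Trav14n-3 with 524. The first place of Trav14n-3 in usage thus rests on the FPKM lengths. Its annotated exon length, 361 bases, equals that of Trav4-4-dv10. Mean usage over the 6 libraries was 4.77% for Trav4-4-dv10, 4.4997% for Trav14-1, 4.16% for Trav13-1, 4.15% for Trav3-3 and 3.68% for Trav14d-3-dv8. It was 3.58% for Trav14-2, 3.11% for Trav9-2, 2.999% for Trav9-4 and 2.81% for Trav14-3. The ranges of KO and WT libraries overlapped for all but Trav14-3 among these 10.

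Of these 10, 5 belong to Trav14, a subfamily of 5 kept segments that took 20.3%, 20.8% and 19.8% of alpha usage in KO, against 19.3%, 21.2% and 16.9% in WT. Trav6, with 11 segments, was second at 12.2% ± 0.783 in KO and 11.5% ± 1.71 in WT (SD, n = 3 each). Copies without a letter held 74.7% ± 1.17 of alpha usage in KO and 75.3% ± 0.323 in WT. The d copies held 9.61% to 11.6% in KO and 8.998% to 11.6% in WT, and the n copies 14.8% ± 0.150 in KO and 14.7% ± 1.13 in WT. The 8 segments that can serve alpha or delta chains (names with dv) made up 15.4% to 18.02% in KO and 17.2% to 17.8% in WT.

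**Figure D2:**
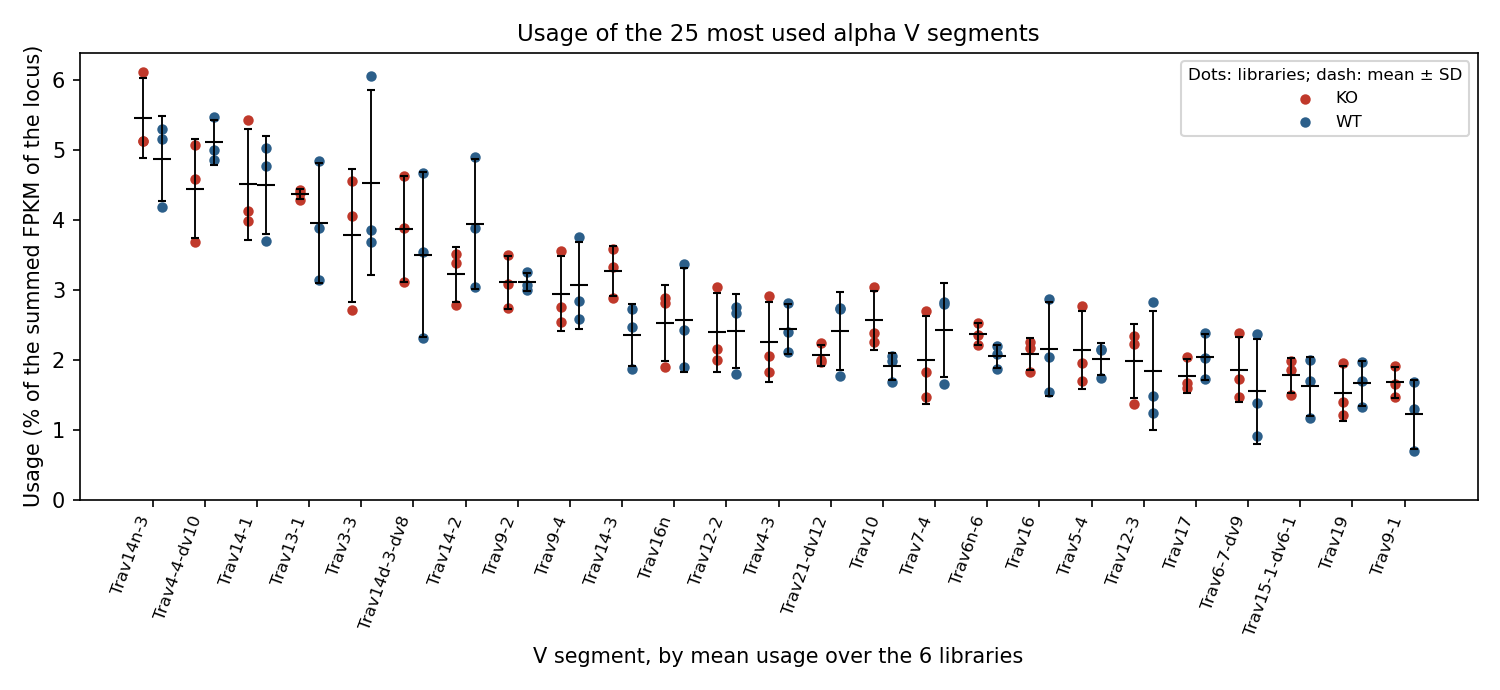
Usage of the 25 most used alpha V segments, as a percentage of the summed FPKM of the locus, in KO (red, left of each pair) and WT (blue, right) libraries, with mean and SD (n = 3 each). Spreads within a genotype often exceed the difference between genotypes; Trav14-3 is one whose KO dots (2.88% to 3.58%) all lie above its WT dots (1.86% to 2.72%).

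Alpha genes with few reads were mostly those that share all of their sequence with another V exon. A V exon's 50-base words were looked up in 176 V exons of the mouse annotation; the median kept alpha segment had 54.8% of its words in no other V exon, against 100% for beta. Of the 36 alpha genes below 10 reads, 33 had no word of their own and 30 were identical to another V exon. All 19 V genes at 0 reads were alpha genes with no unique word. The 35 alpha genes with none had a median of 0 reads and at most 64, while the 8 with all words unique had a median of 137.5. Across the 103 alpha genes the Spearman correlation of uniqueness with summed count was 0.743, a description over genes that share the same libraries. Among the 67 kept segments the coefficient of uniqueness with usage, rather than count, was 0.261. That set was also kept by its counts, so these coefficients cannot be compared directly. How reads matching several copies were counted is not stated, so the usage of d and n copies, and of the segments they resemble, is uncertain.

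**Figure D3:**
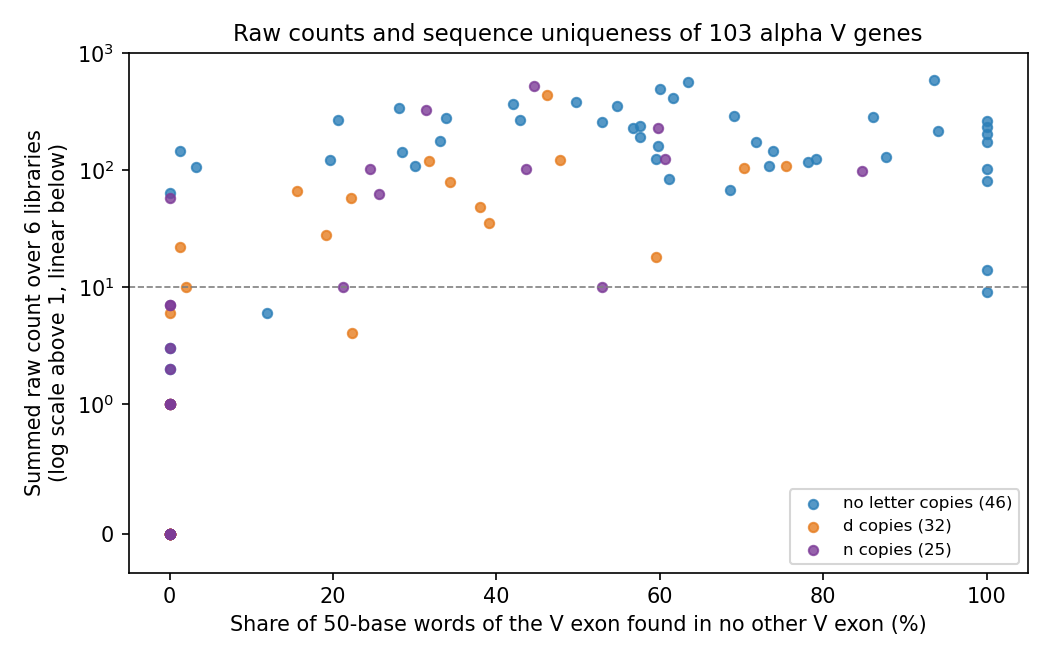
Summed raw count over the 6 libraries (log scale above 1 read, linear below) of 103 alpha V genes against the share of their 50-base words found in no other V exon, by copy type. The column of points at 0% holds 35 genes, 2 of them above the dashed line at 10 reads.

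Position along the chromosome went with usage, in opposite directions for alpha and beta. In GRCm38 the kept alpha segments run from 52427928 to 53876752 on chromosome 14, and their start correlated with usage at a Spearman coefficient of 0.485 (67 segments). The 22 segments farthest from the J cluster held 16.8% of alpha usage, the middle 22 held 36.7% and the 23 nearest 46.5%. For beta, on chromosome 6, the coefficient was -0.50 (21 segments), so usage fell towards higher coordinates. These are descriptions over segments of the same libraries, and uniqueness of sequence also varies along the alpha cluster, where the letter copies lie upstream of most others.

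None of the tested segments among the 93 passed the test between KO and WT. Trbv4, a beta segment outside the 93, did pass with edgeR and is described below. With edgeR's quasi-likelihood test and Benjamini-Hochberg adjustment over 13626 genes, 0 of the 82 tested segments (58 alpha, 20 beta, 1 gamma, 3 delta) were called higher and 0 lower in KO, against 6.50% of all genes called (3.68% higher and 2.83% lower). DESeq2 and limma-voom also called 0. At an unadjusted p under 0.05 there were 4 of 82 segments, against 21.8% of all genes. The 11 untested segments summed to 60 reads or fewer. The median log2 fold change was 0.098 over the 82 segments (quartiles -0.11 and 0.24) and 0.00026 over all genes (quartiles -0.12 and 0.13). The median standard error was 0.34 for alpha segments and 0.10 for beta segments, so a change of a given size was less detectable in alpha.

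**Figure D4:**
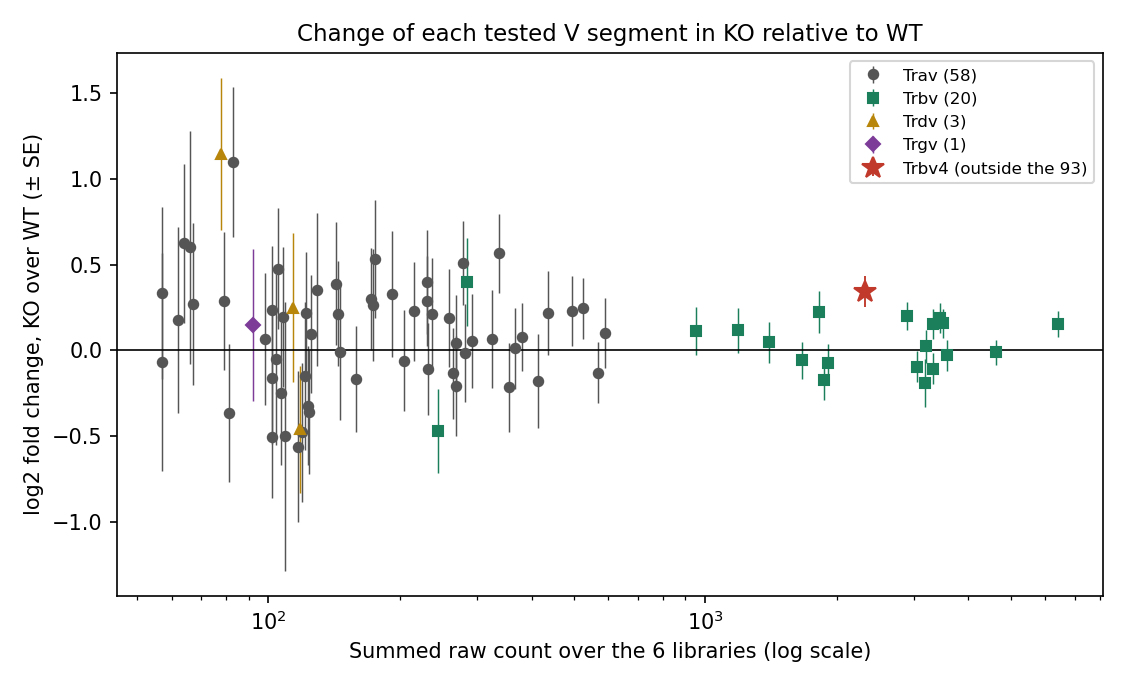
Log2 fold change (KO over WT) with its standard error for the 82 tested V segments against their summed raw count (log scale), by locus, with Trbv4 as a star. The 18 beta segments with at least 900 reads lie between -0.19 and 0.22 with standard errors up to 0.14, while the other segments scatter from -0.56 to 1.14; no segment except Trbv4 passed the test.

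The 4 segments with an unadjusted p under 0.05 were all higher in KO by their fold change and did not pass adjustment. Trdv4 had 16, 22 and 17 reads in KO, against 12, 4 and 7 in WT (log2 fold change 1.14, SE 0.44, edgeR adjusted p = 0.153). Trav3-1 had 23, 16 and 19 reads in KO, against 9, 12 and 4 in WT (log2 fold change 1.10, SE 0.44, edgeR adjusted p = 0.162). Trav14-3 had 76, 73 and 58 reads in KO, against 50, 46 and 34 in WT (log2 fold change 0.56, SE 0.23, edgeR adjusted p = 0.167). For the beta segment Trbv13-1 the log2 fold change was 0.20 (SE 0.08, edgeR adjusted p = 0.176). In each, all KO libraries stood above all WT libraries in CPM. Over the 82 segments this held for 8 with KO higher and 2 with KO lower, against 13.7% and 12.6% of all genes. In usage, which has no counterpart for other genes, it held for 7 of the 93 with KO higher and 4 with KO lower, Trbv1 and Trbv26 among the lower ones. Trbv30 was lower in both, with 33, 37 and 37 reads in KO and 46, 49 and 42 in WT.

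Trbv4 stands outside the 93 because its gene ID in the counts had no match in the annotation that gave the symbols; its row was found through the deposited tables that carry the name, and it was looked at after its values were known. It had 447, 454 and 437 reads in KO, against 341, 326 and 310 in WT. All KO libraries lay above all WT libraries, at 21.2 ± 0.418 CPM in KO and 16.8 ± 0.511 CPM in WT (SD, n = 3 each). The log2 fold change was 0.34 (SE 0.09), with an edgeR adjusted p of 0.0420 and 0.0417 by limma-voom. DESeq2 gave an adjusted p of 0.0611. Leaving out 1 library gave edgeR adjusted p-values from 0.0470 (without WT replicate 2) to 0.156 (without WT replicate 1), past 0.05 for every library left out but WT replicate 2. A fit that took the mean log2 CPM of the B cell markers as a covariate gave 0.33 (SE 0.19) with an edgeR adjusted p of 0.629. As 14 of the 18 markers were lower in all KO than in all WT libraries, that fit separates the score from genotype poorly. Trbv4 took 4.73% ± 0.210 of beta usage in KO and 3.87% ± 0.140 in WT when added to the beta total.

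Summed alpha and summed beta V segment RNA each overlapped between KO and WT libraries. Alpha segments summed to 112.0, 98.7 and 97.7 CPM in KO replicates 4 to 6, against 88.9, 98.6 and 101.8 CPM in WT replicates 1 to 3 (exact permutation p = 0.5). The kept beta segments, without Trbv4, summed to 449.5, 418.0 and 431.3 CPM in KO, against 422.7, 423.6 and 415.6 CPM in WT (exact permutation p = 0.3). Set against the constant genes of the same chain, which every rearranged transcript carries, there were 343, 289 and 263 alpha V reads per 1000 Trac reads in KO, against 291, 297 and 328 in WT. There were 700, 635 and 574 beta V reads per 1000 Trbc1 and Trbc2 reads in KO, against 695, 628 and 653 in WT. On this scale the KO mean was below the WT mean for both chains, at exact permutation p = 0.8 for alpha and 0.7 for beta, whereas in CPM it was above. All V reads together were 0.563, 0.5235 and 0.534 per 1000 total reads in KO, against 0.513, 0.5233 and 0.521 in WT. On that scale the groups did not overlap (exact permutation p = 0.1, the smallest possible), although KO replicate 5 and WT replicate 2 almost met.

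Evenness was high in every library, and the groups overlapped. It is the Shannon entropy of usage over its maximum, so 1 means equal use of all kept segments. Alpha evenness was 0.924, 0.919 and 0.921 in KO, against 0.921, 0.904 and 0.924 in WT (exact permutation p = 0.8). These values correspond to 48.7, 47.6 and 48.0 equally used alpha segments in KO, against 48.1, 44.7 and 48.7 in WT. Beta evenness was 0.927, 0.925 and 0.925 in KO, against 0.932, 0.920 and 0.931 in WT (exact permutation p = 0.7), or 16.7 to 16.8 equally used segments in KO and 16.5 to 17.1 in WT. WT replicate 2 was the least even library for both chains. Of the 67 alpha segments, 65, 67 and 66 had a read in KO and 65, 63 and 65 in WT, and all 21 beta segments had reads in every library.

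**Figure D5:**
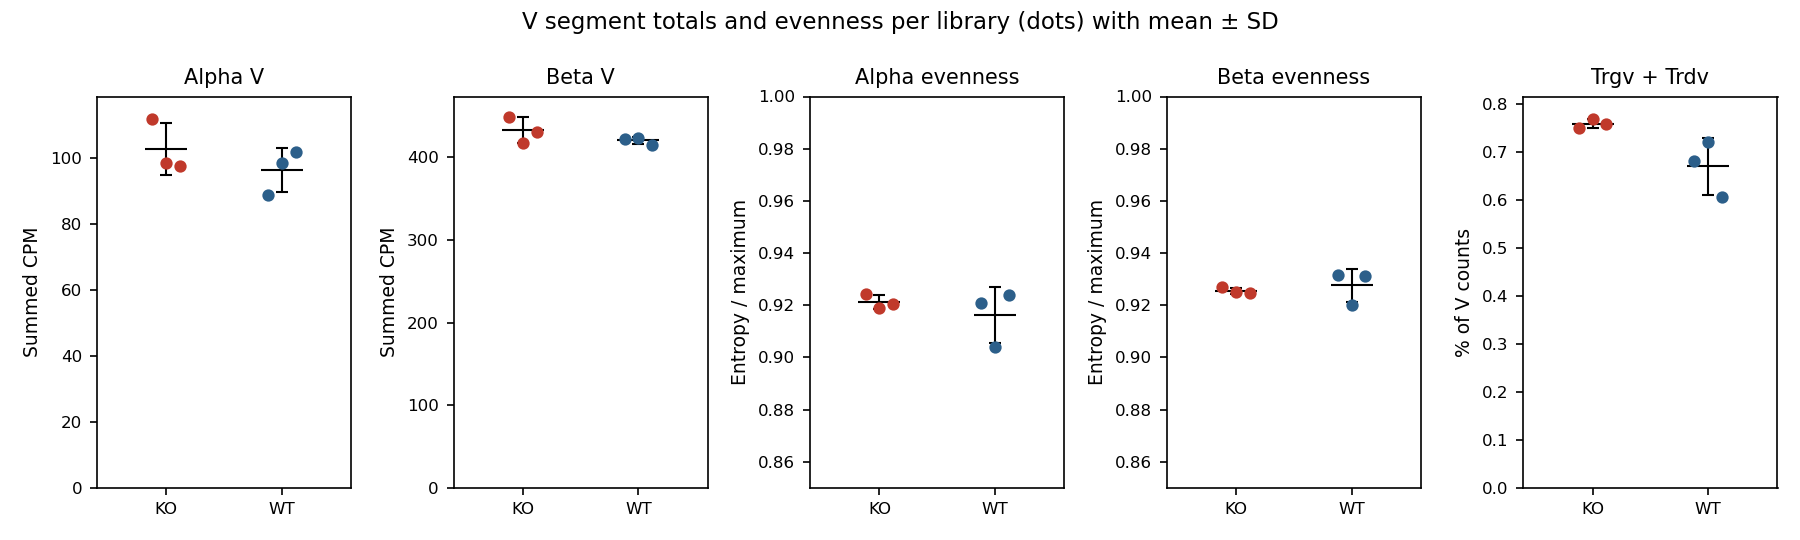
Summed CPM of alpha and beta V segments, evenness of both (axis from 0.85 to 1) and the gamma plus delta share of V counts, for KO (left) and WT (right); dots are libraries, the dash and bar the mean and SD (n = 3 each). KO and WT dots overlap in the first 4 panels and are apart in the last, where KO lies between 0.750% and 0.769% and WT between 0.606% and 0.722%.

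Distances between whole usage profiles overlapped within and between genotypes. The measure is the percentage of usage that would have to move between segments to turn one library's profile into the other's. For alpha it was 10.8% to 13.1% between KO libraries, 13.6% to 18.2% between WT libraries and 11.5% to 15.6% between genotypes. For beta it was 3.15% to 4.52% between KO libraries, 2.83% to 5.25% between WT libraries and 3.79% to 6.24% between genotypes.

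Gamma and delta V segments were at trace level. Together they made up 0.750%, 0.769% and 0.759% of V counts in KO, against 0.682%, 0.722% and 0.606% in WT, from 57 to 89 reads a library. The groups did not overlap (exact permutation p = 0.1, the smallest possible), but the exact 95% binomial intervals, which cover counting error only, ran from 0.603% to 0.951% over the KO libraries and from 0.459% to 0.906% over the WT libraries. With the 6 gamma segments that the annotation names Tcrg-V and the symbol rule leaves out, the share was 1.08%, 1.15% and 1.23% in KO, against 1.10%, 1.04% and 1.06% in WT, and the groups overlapped (exact permutation p = 0.2).

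Among single segments, Trgv2 had 21, 15 and 14 reads in KO, against 21, 6 and 15 in WT (log2 fold change 0.15, SE 0.44). Trdv2-2 had 22, 13 and 17 reads in KO, against 17, 28 and 21 in WT (log2 fold change -0.46, SE 0.37), and its close copy Trdv2-1 (97.7% identity) fell below 10 reads. Trdv1 had 18, 19 and 27 reads in KO, against 16, 27 and 7 in WT (log2 fold change 0.25, SE 0.44). The groups overlapped for all 3. Trdv5 had 12, 15 and 10 reads in KO and 8, 8 and 7 in WT, was too low to be tested, and overlaps a delta constant gene not analysed here on the opposite strand; Trdv4 and Trdv2-2 also overlap predicted genes on the opposite strand. Strand use in the counting is not given, so such reads cannot be told apart.

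The gamma constant genes, which encode the other end of that chain, were low too and none passed. Tcrg-C1 stood at 5.78 ± 1.45 CPM in KO and 8.35 ± 1.65 CPM in WT (SD, n = 3 each; log2 fold change -0.53, SE 0.20, edgeR adjusted p = 0.141). Tcrg-C2 gave -0.22 (SE 0.20) and Tcrg-C4 -0.29 (SE 0.18), and Tcrg-C3 was too low to be tested. Of these constant genes only Tcrg-C4 was lower in all KO than in all WT libraries in CPM, as were 12.6% of all genes. Of 7 measured gamma-delta T cell markers, whose sum was 22.0 to 31.7 CPM in KO and 23.6 to 29.5 CPM in WT, 6 were tested and 1 was called, higher in KO, against 3.68% of all genes: Cd163l1, a scavenger receptor gene of a gamma-delta subset. It had 141, 126 and 190 reads in KO, against 111, 70 and 65 in WT (log2 fold change 0.79, SE 0.21, edgeR adjusted p = 0.0369).

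The semi-invariant segments were scarce. Trav1 had 23, 15 and 19 reads in KO, against 20, 11 and 14 in WT, or 0.892% ± 0.140 of alpha usage in KO and 0.813% ± 0.252 in WT (SD, n = 3 each). Trav11 had 0, 0 and 2 reads in KO and 0, 0 and 0 in WT, and Trav11d had 0 in all 6. Those 2 exons differ by 1 edit and share every 50-base word with another V exon, so their low counts do not show that NKT cell transcripts were absent. At the edge of the count threshold, Trav10d, Trav13n-3 and Trav9n-1 had 10 reads each and were kept, while Trav18 with 9, Trdv2-1 with 8 and Trav12n-2 with 7 were not.

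None of the tested constant and co-receptor genes passed. Of 15 listed constant, CD3, CD4 and CD8 genes 13 were tested, and 0 were called higher and 0 lower (3.68% and 2.83% of all genes were). Trac stood at 347 ± 23.2 CPM in KO and 316 ± 14.5 CPM in WT (SD, n = 3 each; log2 fold change 0.13, SE 0.06, edgeR adjusted p = 0.215). The log2 fold change was 0.08 for Trbc1 and 0.11 for Trbc2. Cd8b1 is a marker of CD8 T cells that the CD4 gate should leave out. It had 396, 304 and 426 reads in KO, against 494, 428 and 405 in WT. In CPM it was lower in all KO than in all WT libraries, as were 12.6% of all genes. The means were 17.9 ± 3.02 CPM in KO and 22.7 ± 0.649 CPM in WT (SD, n = 3 each). Cd8b1 did not pass either (log2 fold change -0.34, SE 0.12, edgeR adjusted p = 0.107), and Cd8a overlapped.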

How the data were processed

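RNA was sequenced from 6 Treg libraries, 3 KO and 3 WT. Reads were processed with bcl2fastq, STAR 2.4.2a and DESeq2 on GRCm38, per the submitters' processing notes; what counted the reads, whether by strand, and how reads matching several genes were treated were points not given in the sources used here. Raw counts per gene ID were deposited by the authors, beside normalized counts per symbol (a signal scaled by 1 factor per library) and FPKM per symbol. No per-sample column was left unused.

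GENCODE M21 gave the symbols and matched 35412 of 37187 IDs. FPKM rows were joined to raw counts by value (raw count over the authors' factor, equal to 2 decimals) for 92 of 93 segments, because 42 carry another name there; the FPKM of the last, Trav10d, came from the annotated exon length. Raw counts were tested with edgeR 4.0.16 (filterByExpr, TMM factors, robust quasi-likelihood fit, two-sided, Benjamini-Hochberg threshold 0.05) in R 4.3.3; CPM uses the TMM factors. Sums, evenness and shares were compared by exact two-sided permutation of the 6 libraries. Sequence identity came from edit distances (edlib 1.3.9.post1).

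The segments and gene lists were chosen with earlier results of these data known. Named are the 10 most used alpha and 10 most used beta segments, called segments, all gamma and delta segments, the semi-invariant alpha segments, those at the count threshold, and constant genes and called genes of the receptor and recombination lists; other segments were named after their values were seen. Libraries of a group differed by 4.81 to 13.4 times the counting variance, so none is a duplicate. The test was tried on simulated counts with known changes. Alternatives were DESeq2 1.42.0, limma-voom (limma 3.58.1), RLE and upper-quartile factors, other filters, a score of 18 B cell markers as covariate, and libraries left out; adding Trbv4 was chosen after seeing the data. Total counts of 18071928 to 21165063 set the precision, and intervals cover counting error only. RefSeq promoter sequences hold no entry used here.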

Additional observations from a re-analysis of the deposited data

How the results depend on the processing

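The count of 0 V segments called higher in KO became 1 without WT replicate 2 (Trbv3, log2 fold change 0.24, edgeR adjusted p = 0.0467) and 1 with Trbv4 added; it stayed 0 under the other alternatives, and the count called lower stayed 0 in all of them. Set per 1000 constant gene reads, the KO minus WT difference was -7.10 for alpha and -22.2 for beta reads, against sums in CPM that were higher in KO. Leaving out 1 library moved the Trgv sum difference between -0.119 and 0.223 CPM and the alpha evenness difference between -0.00123 and 0.00880. For 25 named segments under 14 settings, 316 of 346 fold changes kept direction and side of the threshold and 29 turned sign, 18 of them on leaving out 1 library; the cause was not tested. The score of B cell markers is poorly separable from genotype, since 14 of the 18 were lower in all KO than in all WT libraries. With it as covariate the log2 fold change was -0.0074 for Trav14n-3, -0.20 for Trav14-1, -0.24 for Trav13-1 and -0.28 for Trav14d-3-dv8. It was -0.040 for Trbv3 and -1.01 for Trdv1. With no turn of sign it became 1.73 for Trgv2, 2.57 for Trdv4 and -1.25 for Trdv2-2, all these segments having an edgeR adjusted p above 0.05. Without WT replicates 1 and 3, where the lone WT library is taken to vary as the KO ones do, it was -0.093 for Trav14-1, -0.094 for Trav13-1, -0.23 for Trav14d-3-dv8 and -0.46 for Trdv1, and with upper-quartile factors it was 0.012 for Trbv13-2. Leaving out 1 library gave ranges of -0.12 to 0.22 for Trav14-1, -0.36 to 0.11 for Trav3-3, -0.42 to 0.019 for Trav14-2, -0.10 to 0.24 for Trav9-4, -0.053 to 0.040 for Trbv13-2, -0.091 to 0.035 for Trbv19, -0.070 to 0.084 for Trbv16, -0.083 to 0.80 for Trdv1 and -0.20 to 0.48 for Trgv2. No paired analysis was possible because KO and WT share no replicate numbers. Delta sums per constant reads were not run. Depth limits the alpha segments, with a median of 125 reads and a median standard error of 0.34 on the log2 scale, and 3 libraries a group cannot reach an exact p below 0.1.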

Other observations

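Segments that join to V showed no called change. Of the 59 alpha J segments counted, 46 had at least 10 reads and 23 were tested, and 0 were called; the same held for 14 of 14 beta J segments, 2 of 2 beta D segments and 1 of 2 delta J segments tested, with 0 at an unadjusted edgeR p under 0.05 in each family, against 6.50% of all genes called and 21.8% at that unadjusted p. Beta J segments summed to 87.0, 69.9 and 72.4 CPM in KO, against 89.6, 86.5 and 81.2 CPM in WT.

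Of the 4 recombination and pre-receptor genes listed, all but Dntt were close to silent. Rag1, a subunit of the recombinase, had 5 reads over all 6 libraries, and Rag2, its partner, and Ptcra, the surrogate alpha chain of thymocytes, had 0. Dntt, the enzyme that adds untemplated bases at V junctions, had 49, 49 and 40 reads in KO, against 32, 22 and 32 in WT; the groups did not overlap in CPM, but the change did not pass (log2 fold change 0.57, SE 0.27, edgeR adjusted p = 0.249).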
